A study of Arabidopsis thaliana with 6 samples.

Results

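WRKY and bHLH transcription factors were followed in Arabidopsis thaliana seedlings in a study of nuclear gene expression when chloroplast division is inhibited. The genes were chosen by symbol: probe sets assigned to exactly 1 gene whose symbol starts with WRKY, NAC, MYB, ERF or bHLH and a number, with a mean signal over the 6 arrays of 25 or more. Of 22810 probe sets on the array, of which 13513 carried 1 gene symbol and 11933 of these only a locus name in its place, 12 had such a symbol and 9 reached that signal, 5 for WRKY genes (WRKY6, WRKY20, WRKY22, WRKY47 and WRKY53) and 4 for bHLH genes (bHLH34, BHLH101, bHLH104 and bHLH115). No symbol of the MYB or ERF kind was matched to a probe set, and the single NAC match lay under the minimum, so nothing below describes those 3 families. Each of the 9 genes had 1 named probe set.

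Prolonged induction seedlings carried a T-DNA in the Ler-1 background, were sown on 2 µM 7-B-estradiol and were sprayed with it every 24 h. Temporal induction seedlings, also Ler-1 with a T-DNA, received 1 spray of 2 µM 7-B-estradiol at day 13, 24 h before harvest. Control seedlings, given as Ler-0, held the inducible vector PER-10 with no insert and received 1 spray of 2 µM 17-B-estradiol at day 13. All were whole plants of 14 days, grown in constant light, and each group had 2 ATH1 arrays. The sources used here do not say which transgene was induced. By the labels the controls differ from both induced groups in background, construct and the name of the inducer as well as in induction, and whether the names Ler-0 and Ler-1 or 17-B- and 7-B-estradiol mark real differences is not known. The prolonged seedlings also had a longer and more frequent exposure to the inducer than the controls, which received 1 spray. Neither induced-line seedlings without inducer nor empty-vector seedlings on prolonged inducer were among the groups, so these differences cannot be told apart. Whether the 2 samples of a group were separate cultures is not stated, and p-values then cover no more than the spread between these samples, possibly a technical one.

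WRKY factors bind the W box, a short element common in promoters of defence genes, and many of them are known in Arabidopsis for roles in immunity and leaf senescence. The bHLH factors measured here belong to the network that controls iron uptake. In Arabidopsis bHLH34, bHLH104, bHLH115 and ILR3 (also called bHLH105) form subgroup IVc and activate genes of subgroup Ib, of which BHLH101 is one, when iron is short. Most iron of a green leaf lies in its chloroplasts.

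In prolonged induction against control 1 of the 9 transcripts passed the test, where 6.95% of all tested probe sets did. bHLH115 fell, to 1.69-fold below control, a call that was lost in 7 of 15 alternative settings, while after the single spray its arrays overlapped the controls. WRKY20, WRKY22, WRKY47 and WRKY53 each read higher on all 4 induced arrays than on both control arrays, by 1.29- to 1.82-fold in the fit. None of these differences passed. Of all tested probe sets, 23.2% were higher without overlap after prolonged induction and 22.7% after temporal induction. The share higher in both inductions was not counted. bHLH104 differed little between groups, and WRKY6, BHLH101 and bHLH34 varied too much between arrays of 1 group to be placed. Whole plants were sampled, so fewer cells of a type and less RNA per cell cannot be told apart.

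**Figure D1:**
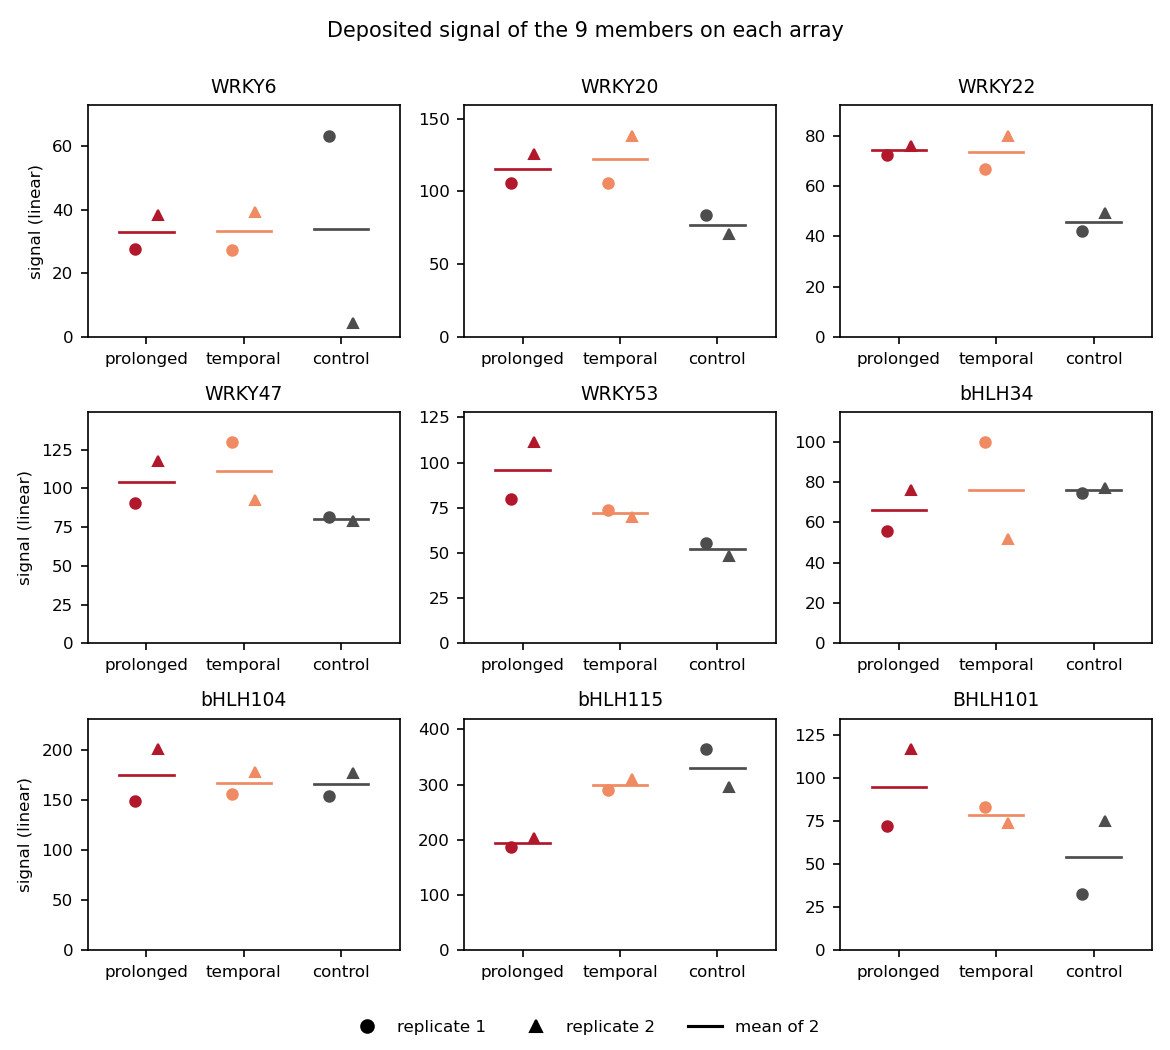
Deposited signal (linear axis from 0, arbitrary units) of the 9 genes on each array; circles are replicate 1, triangles replicate 2 and lines the mean of the 2 arrays. In WRKY20, WRKY22, WRKY47 and WRKY53 both control arrays lie below all induced arrays, in bHLH115 the 2 prolonged arrays lie lowest, and the 2 control arrays of WRKY6 read 63.2 and 4.34.

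The values are MAS5 signals, which summarise the probes of a probe set in arbitrary units, and signals of different probe sets cannot be set against each other. All arrays had been brought to a mean of 100.01 after trimming 2% from each end, and their medians ran from 53.1 to 58.8. Log2 signals were fitted with limma, and a gene was called at an adjusted p (Benjamini-Hochberg) under 0.05 over 15922 tested probe sets. The number of arrays limits the precision: across these probe sets the median standard error (SE) of a log2 fold change was 0.32. Log2 signals of the 2 arrays of a group correlated at r = 0.894 (prolonged), 0.914 (temporal) and 0.881 (control) across probe sets, which are not replicates. Between prolonged and temporal arrays r was 0.895 to 0.914, so these groups were as alike as arrays of 1 group. Between control and prolonged arrays r was 0.834 to 0.845, and between control and temporal arrays 0.863 to 0.867. The leaf gene RCA had signals of 8959 to 14256 and the root gene PYK10 of 2618 to 4660. These signals cannot check the tissue label, since all samples were whole plants.

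Within a group, the higher of the 2 arrays exceeded the lower by a median over the 9 genes of 1.35-fold after prolonged induction, 1.195-fold after temporal induction and 1.17-fold in control. The widest gap was 1.62-fold for BHLH101 in the prolonged arrays, 1.92-fold for bHLH34 in the temporal arrays and 14.6-fold for WRKY6 in the control arrays. At the other end, the arrays of a group differed by only 1.05-fold for WRKY22 (prolonged), 1.06-fold for WRKY53 (temporal) and 1.03-fold for WRKY47 (control). Just above the signal minimum stood WRKY6 with a mean of 33.4, followed by WRKY22 with 64.5 and bHLH34 with 72.5. Just below it stood bHLH121 with 20.8, NAC014 with 10.8 and WRKY42 with 7.77.

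The first comparison asked how the factors differ in seedlings that grew on inducer throughout. bHLH115 (AT1G51070), a subgroup IVc activator of the iron-deficiency response, read 186 and 203 after prolonged induction and 365 and 295 in control. Both prolonged arrays lay below both controls, with means of 195 ± 11.7 and 329.9 ± 49.7 (SD, n = 2 arrays each). The log2 fold change was −0.75 ± 0.17 SE (95% interval −1.14 to −0.37; limma adjusted p = 0.0257), which leaves the level at 0.593 of control, between 0.454 and 0.774. It was the only one of the 9 that passed in limma, or 1 of 9 against 6.95% of all tested probe sets in either direction, and against 3.18% counted as falls only. One call among 9 is no more than a single gene, and a share near the background says nothing about the families.

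The fall of bHLH115 kept its direction in all 15 alternative settings, with log2 fold changes from −0.91 to −0.60. Only a rescaling of the arrays could have turned this direction. The other settings left the fold change as it was, added an offset or left out a single array, and the groups do not overlap. The call of bHLH115 did not hold in 7 of the 15 settings. Its adjusted p was 0.113 without prolonged replicate 1 and 0.0623 without prolonged replicate 2. It was 0.171 without control replicate 1, the array with the higher control signal, 0.0532 and 0.0533 without temporal replicates 1 and 2, 0.0511 when only the 4 arrays of the 2 groups were fitted and 0.195 without the intensity trend in the variance. The 2 temporal arrays have no part in this fold change, and leaving one out alters only the estimate of the spread.

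**Figure D2:**
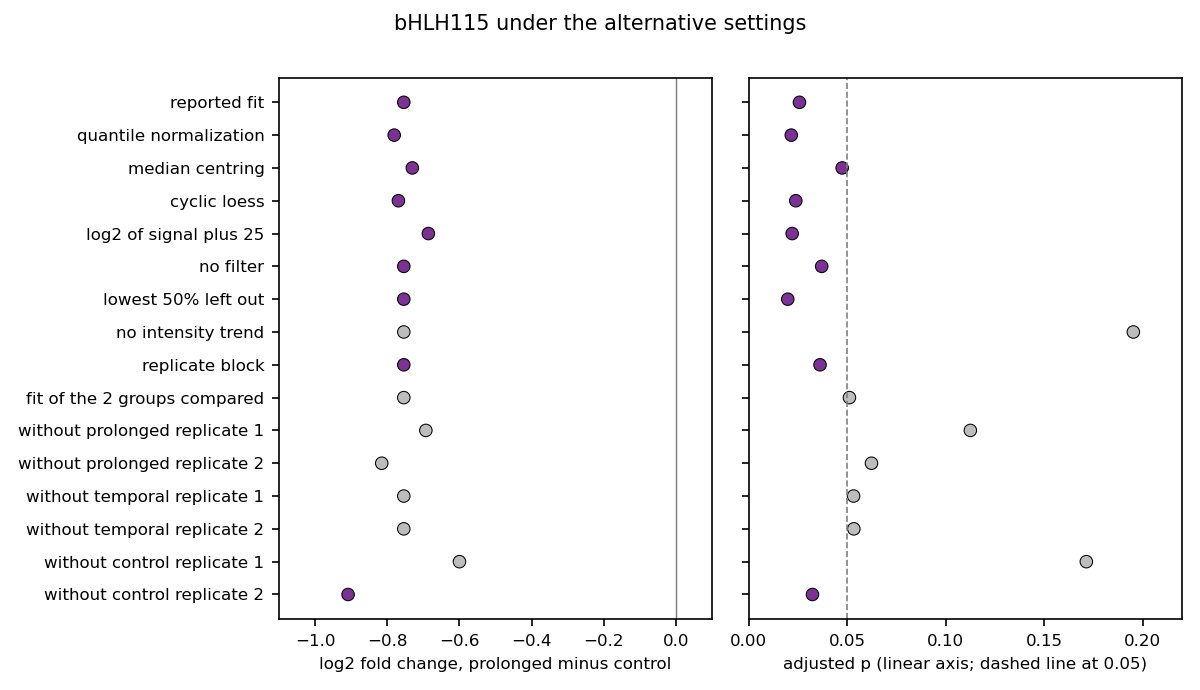
bHLH115 in prolonged induction against control under the reported fit and 15 alternatives: log2 fold change on the left, adjusted p on the right with a dashed line at 0.05, filled purple where it passed and grey where it did not. All fold changes lie between −0.91 and −0.60, whereas adjusted p runs from 0.0198 to 0.195.

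WRKY53 (AT4G23810), known as a regulator of early leaf senescence, read 80.1 and 111 after prolonged induction and 55.4 and 48.6 in control. All prolonged values were the higher ones, and the log2 fold change was 0.86 ± 0.33 (95% interval 0.15 to 1.58; adjusted p = 0.160). WRKY22 (AT4G01250), which acts in defence signalling after perception of bacterial flagellin, read 72.4 and 76.1 after prolonged induction and 42.0 and 49.3 in control (log2 fold change 0.71 ± 0.34, adjusted p = 0.281). The 2 prolonged arrays nearly coincide and lie clear of the controls.

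WRKY20 (AT4G26640), a group I member with a pair of WRKY domains, read 106 and 126 after prolonged induction and 83.9 and 70.6 in control. The groups do not overlap, and the log2 fold change of 0.58 ± 0.27 did not pass (adjusted p = 0.257). WRKY47 (AT4G01720), of group IIb, read 90.8 and 117 after prolonged induction and 81.2 and 79.1 in control (0.37 ± 0.28, adjusted p = 0.528). Its lower prolonged array was thus close above the controls, and leaving out 1 array gave 0.18 to 0.55.

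WRKY6 (AT1G62300), a group IIb factor known from senescence and phosphate supply, read 27.5 and 38.4 after prolonged induction, and its control arrays read 63.2 and 4.34. The prolonged values lie between the controls. Its mean signal was 33.0 ± 7.71 after prolonged induction and 33.8 ± 41.6 in control, yet the log2 fold change was 0.97 ± 1.09, because the mean of logarithms weighs the low control array more. Without control replicate 2 it turned to −0.96, so no direction can be given for WRKY6.

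BHLH101 (AT5G04150), a subgroup Ib factor that acts with FIT, the main activator of root iron uptake, read 72.3 and 117 after prolonged induction and 32.7 and 74.8 in control. The groups overlap, since one control array exceeded the lower prolonged array. The log2 fold change of 0.90 ± 0.43 (95% interval −0.04 to 1.83; adjusted p = 0.274) was 1.49 without control replicate 2 and 0.30 without control replicate 1. Its sign was opposite to that of bHLH115 in the same comparison.

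bHLH104 (AT4G14410), a subgroup IVc partner of ILR3, read 149 and 201 after prolonged induction and 154 and 177 in control. The log2 fold change was 0.07 ± 0.22, with a 95% interval of −0.42 to 0.55 that excludes a halving or a doubling. bHLH34 (AT3G23210), also of subgroup IVc, read 55.7 and 76.2 after prolonged induction and 74.7 and 77.2 in control (−0.22 ± 0.38, adjusted p = 0.809). ILR3 (AT5G54680), which belongs to the same subgroup but falls outside the rule by its symbol, read 336 and 306 after prolonged induction and 334 and 328 in control, a log2 fold change of −0.05 ± 0.15 (95% interval −0.39 to 0.29). Among the 4 matched genes of subgroup IVc, bHLH115 was thus the one that passed; differences between these genes were not tested.

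Apart from the test, 4 of 9 genes had both prolonged arrays above both controls, against 23.2% of all tested probe sets, and 1 of 9 had both below, against 24.6%. At an unadjusted p under 0.05 there were 2 of 9, bHLH115 and WRKY53, against 20.0% of all. The median log2 fold change was 0.71 over the 5 WRKY genes, from 0.37 to 0.97, −0.08 over the 4 bHLH genes, from −0.75 to 0.90, and −0.02 over all tested probe sets. Over all of these, 25% lay above 0.34 and 5% above 1.13, so the WRKY values lie inside the upper part of a wide distribution. The WRKY median includes WRKY6, for which no direction can be given, and it was 0.46 without control replicate 2 and 0.46 with the offset of 25.

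**Figure D3:**
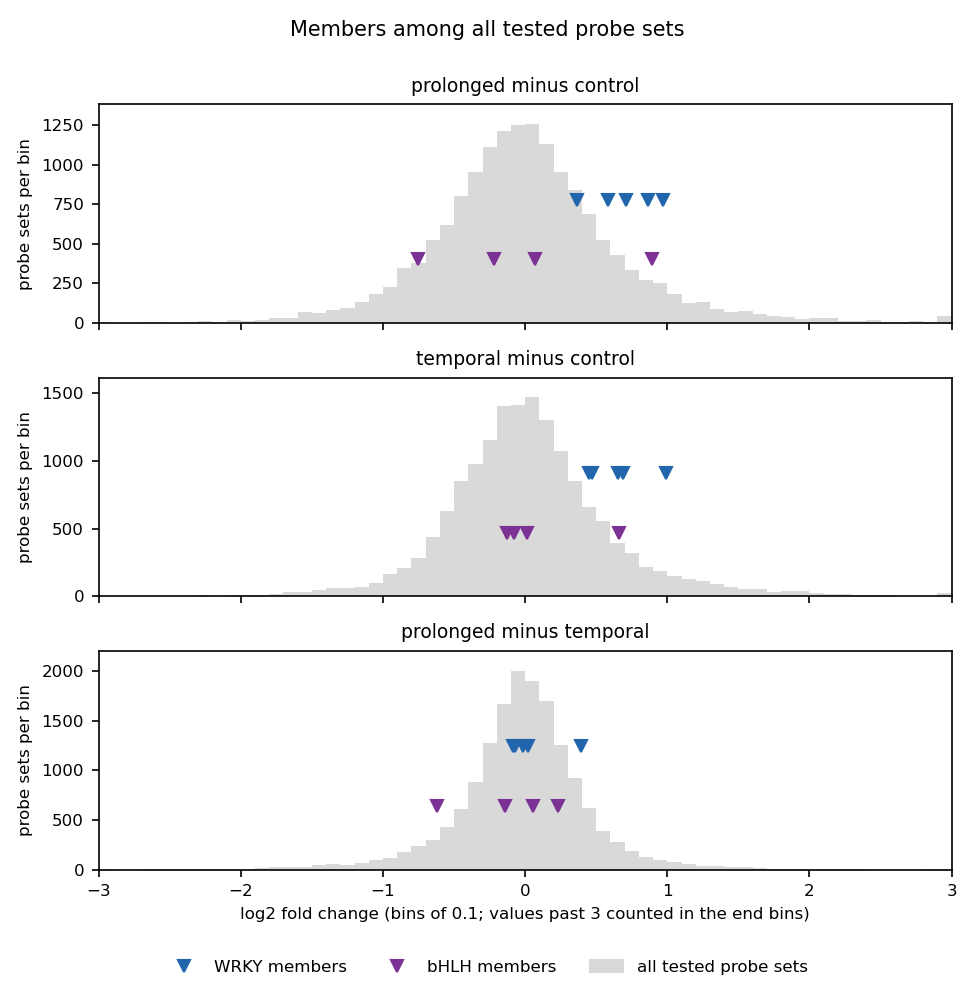
Number of tested probe sets per log2 fold change bin of 0.1 (grey bars) in the 3 comparisons, with the 5 WRKY genes (blue) and 4 bHLH genes (purple) as triangles whose height carries no value. The WRKY genes stand at 0.37 to 0.97 in prolonged minus control and at 0.45 to 0.99 in temporal minus control, and near 0 between the induced groups except for WRKY53 at 0.39.

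Marker genes of tissues were read beside these values. Of 8 root markers listed 3 were matched. PYK10 read 3820 and 2618 after prolonged induction and 4006 and 4660 in control. EXPA7 read 27.5 and 50.1 after prolonged induction and 105 and 86.7 in control. EXPA18 read 24.1 and 11.5 after prolonged induction and 60.6 and 66.3 in control. Of 10 anther and pollen markers listed 3 were matched. ATA27 read 89.7 and 116 after prolonged induction and 3.98 and 20.5 in control. AMS read 4.05 and 18.3 after prolonged induction and 12.0 and 15.3 in control. SPL read 4.89 and 11.0 after prolonged induction and 2.18 and 2.41 in control. AMS and SPL were too low to be tested. RCA, the 1 green leaf marker matched of 6 listed, read 8959 to 9929 after prolonged induction and 13024 to 14256 in control. Their part in the values of bHLH115 and the WRKY genes was not tested. The 3′ to 5′ ratio of a control transcript rises as RNA degrades. For actin it was 6.14 and 4.45 in the prolonged arrays and 4.19 in both control arrays. For GAPDH it was 2.22 and 2.67 in the prolonged arrays and 1.82 and 2.38 in control. For ubiquitin it was 1.87 and 1.69 in the prolonged arrays and 1.66 and 1.79 in control. The GAPDH and ubiquitin ratios overlapped between these groups, and the part of RNA quality was not tested either.

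The second comparison set the single spray against empty-vector controls sprayed once at the same age, both groups harvested 24 h after the spray. None of the 9 genes passed in limma, where 2.42% of all tested probe sets did. At an unadjusted p under 0.05 there was 1 of 9, WRKY20, against 14.7% of all. Of the root markers, PYK10 read 3674 and 3597 after temporal induction and 4006 and 4660 in control. EXPA7 read 53.5 and 43.0 after temporal induction and 105 and 86.7 in control. EXPA18 read 56.5 and 57.8 after temporal induction and 60.6 and 66.3 in control. Of the anther and pollen markers, ATA27 read 74.997 and 69.7 after temporal induction and 3.98 and 20.5 in control. AMS, too low to be tested, overlapped control (7.75 and 23.2 against 12.0 and 15.3). SPL, also too low, read 6.94 and 8.65 against 2.18 and 2.41 in control. RCA read 11179 to 11299 after temporal induction and 13024 to 14256 in control. The actin ratio was 3.19 and 5.22 in the temporal arrays and 4.19 in both control arrays. The GAPDH ratio was 2.43 and 2.48 in the temporal arrays and 1.82 and 2.38 in control. The ubiquitin ratio was 1.58 and 1.79 in the temporal arrays and 1.66 and 1.79 in control. The part of these markers and ratios in the values below was not tested. These fold changes use the same 2 control arrays as those of prolonged induction, so the 2 sets of values are not independent of each other.

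WRKY20 read 106 and 138 after temporal induction and 83.9 and 70.6 in control, a log2 fold change of 0.65 ± 0.27 (95% interval 0.06 to 1.24; adjusted p = 0.283). WRKY22 read 67.0 and 80.0 after temporal induction and 42.0 and 49.3 in control (0.69 ± 0.34, adjusted p = 0.386). In both genes the temporal arrays lie above the controls by more than the gap between the 2 controls.

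WRKY53 read 74.1 and 70.1 after temporal induction and 55.4 and 48.6 in control (log2 fold change 0.47 ± 0.33, adjusted p = 0.558). WRKY47 read 130 and 92.4 after temporal induction and 81.2 and 79.1 in control (0.45 ± 0.28, adjusted p = 0.513). WRKY47 was the more spread of the pair, its 2 temporal arrays lying further apart than its lower one lies from the controls, and leaving out 1 array gave 0.20 to 0.70. WRKY6 read 27.5 and 39.4 after temporal induction, again between its control values of 63.2 and 4.34, and its log2 fold change of 0.99 ± 1.09 turned to −0.94 without control replicate 2.

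bHLH115 read 289 and 310.0 after temporal induction and 365 and 295 in control. The groups overlap, and the log2 fold change was −0.13 ± 0.17 (95% interval −0.52 to 0.25; adjusted p = 0.807). BHLH101 read 83.0 and 73.7 after temporal induction and 32.7 and 74.8 in control (0.66 ± 0.43, adjusted p = 0.528), and one control array exceeded the lower temporal array.

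bHLH104 read 156 and 178 after temporal induction and 154 and 177 in control, a log2 fold change of 0.01 ± 0.22 (95% interval −0.47 to 0.50). bHLH34 read 99.7 and 51.9 after temporal induction, on either side of its control values of 74.7 and 77.2 (−0.08 ± 0.38, adjusted p = 0.958). ILR3 read 324 and 359 after temporal induction and 334 and 328 in control (0.04 ± 0.15). The 3 genes overlapped between the groups.

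Both temporal arrays lay above both controls for 4 of 9 genes, the WRKY genes other than WRKY6, against 22.7% of all tested probe sets, and below both for 0 of 9, against 23.6%. The median log2 fold change was 0.65 over the 5 WRKY genes, −0.03 over the 4 bHLH genes and 0.00 over all tested probe sets. The WRKY median, again with WRKY6 in it, was 0.43 without control replicate 2 and 0.36 with the offset of 25. In each of the 15 alternatives the log2 fold changes of WRKY20, WRKY22, WRKY47 and WRKY53 stayed above 0 against control in both inductions. Only a rescaling of the arrays could have turned these signs. The other alternatives left the fold changes as they were, added the offset or left out a single array, and the groups do not overlap. None of these WRKY genes passed in the alternatives that kept every array of the groups fitted.

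**Figure D4:**
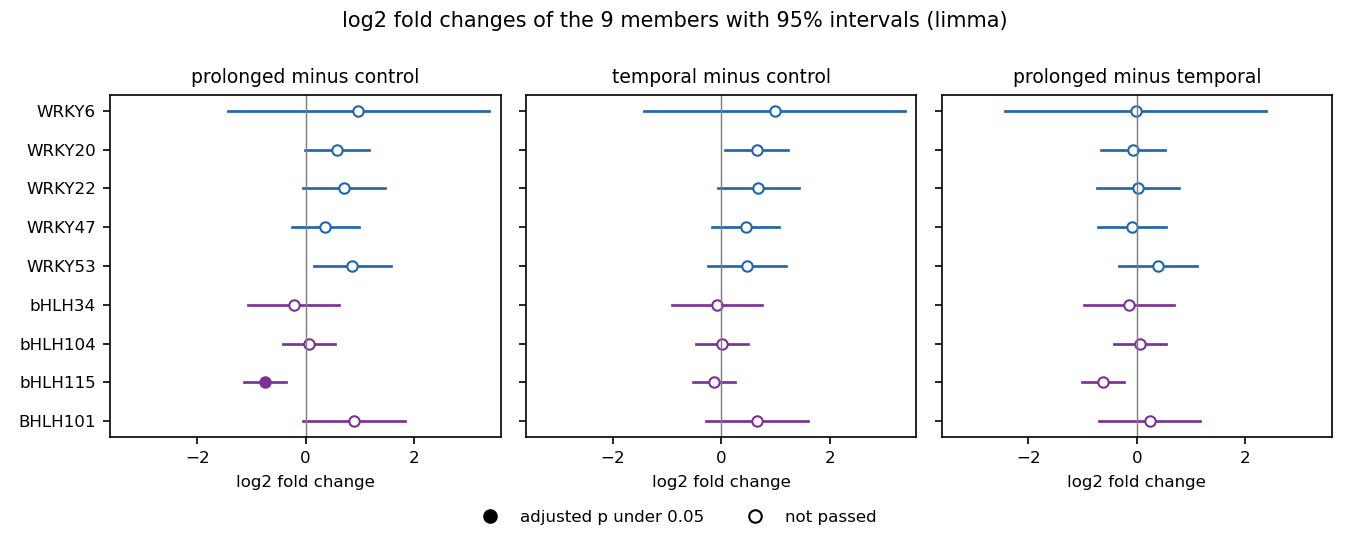
Log2 fold changes (points) with 95% intervals from limma (lines) of the 9 genes in the 3 comparisons, WRKY in blue and bHLH in purple; a filled point passed an adjusted p of 0.05. bHLH115 in prolonged minus control is the filled one, and the intervals of WRKY6 reach from −1.43 to 3.38 there.

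Prolonged and temporal induction were compared to see what continued exposure adds to the single spray. None of the 9 genes passed in limma, where 0.0879% of all tested probe sets did, and 1 of 9, bHLH115, had an unadjusted p under 0.05, against 5.90% of all. bHLH115 read 186 and 203 in the prolonged arrays and 289 and 310.0 in the temporal arrays. Its log2 difference was −0.62 ± 0.17 (95% interval −1.01 to −0.24; unadjusted p = 0.00441, adjusted p = 0.542 in limma). The lower level after prolonged induction is thus not shown to differ from that after the single spray once all probe sets are counted.

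WRKY53 was the other gene without overlap, with 80.1 and 111 in the prolonged arrays and 74.1 and 70.1 in the temporal arrays (log2 fold change 0.39 ± 0.33, 95% interval −0.33 to 1.11). Lack of overlap was seen in 1 of 9 genes upward, against 16.8% of all, and in 1 of 9 downward, against 18.2%. WRKY20, WRKY22 and WRKY47 had log2 differences of −0.07, 0.02 and −0.08, with 95% intervals from −0.66 to 0.52, from −0.73 to 0.77 and from −0.71 to 0.54. These intervals admit differences as large as those from control, so a like level in both induced groups is not shown. BHLH101, bHLH104, bHLH34 and WRKY6 had values of 0.23 ± 0.43, 0.05 ± 0.22, −0.14 ± 0.38 and −0.02 ± 1.09, and the median was −0.02 over the WRKY genes and −0.04 over the bHLH genes, beside −0.01 over all tested probe sets.

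The 3 genes whose symbols matched but whose signal was too low were not tested. bHLH121, which in Arabidopsis works with the subgroup IVc factors in iron supply, read 12.8 and 25.3 after prolonged induction, 11.0 and 13.7 after temporal induction, and 32.7 and 29.6 in control. WRKY42, of the same WRKY subgroup as WRKY6, read 4.41 and 4.48 after prolonged induction, 10.0 and 4.05 after temporal induction, and 11.2 and 12.4 in control. For both, every induced array lay below both controls, but such signals are near or under the minimum for testing, a mean of about 23.5. Of all tested probe sets, 24.6% were lower without overlap after prolonged induction and 23.6% after temporal induction. The share lower in both was not counted, nor was any share among the probe sets too low to be tested, where these genes belong. NAC014, a membrane-tethered NAC factor, ran from 4.79 to 19.4 without separating the groups. ZAP1, also called WRKY1, falls outside the rule by its symbol; it read 93.3 and 130 after prolonged induction, 64.5 and 117 after temporal induction and 136 and 72.5 in control, and the groups overlap.

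Other genes of the pathways in which these families act were listed, 124 names in 8 lists with some genes under more than 1 name, and 11 genes were matched by name to a tested probe set; the others are not analysed here. After prolonged induction 2 of 11 rose and 1 fell, where 6.95% of all tested probe sets changed. After temporal induction 1 rose and 1 fell, where 2.42% did. The lists were chosen with earlier results of these data known, so these counts cannot show that the pathways changed more than other genes. In the iron list 1 of 11 names was matched: PYE, a bHLH regulator of iron homeostasis, read 110.1 and 124 after prolonged induction, 126 and 88.4 after temporal induction, and 86.4 and 107 in control. Its log2 fold changes were 0.28 ± 0.27 and 0.14 ± 0.27, and neither passed.

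In the ethylene list 2 of 19 names were matched. EIN3 (AT3G20770), the transcription factor that relays the ethylene signal and acts upstream of ERF genes, read 327 and 255 after prolonged induction, 243 and 262 after temporal induction, and 149.7 and 133 in control. All induced arrays lie above both controls. It rose by a log2 fold change of 1.04 ± 0.19 after prolonged induction (limma adjusted p = 0.00854) and by 0.84 ± 0.19 after temporal induction (adjusted p = 0.0477). Without prolonged replicate 1 the prolonged rise missed the threshold (adjusted p = 0.0690) as it did without the intensity trend (0.140). The temporal rise also missed it in several other settings, and it passed among the 6 omissions of 1 array only without prolonged replicate 2; adjusted p was 0.0512 without prolonged replicate 1, 0.223 and 0.298 without temporal replicates 1 and 2, and 0.0822 and 0.149 without control replicates 1 and 2.

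PDF1.2, a defensin gene used as a readout of ethylene and jasmonate signalling, read 56.5 and 43.7 after prolonged induction, 24.1 and 31.2 after temporal induction, and 8.70 and 17.3 in control. The 3 groups do not overlap, yet its log2 fold changes against control of 2.02 ± 0.75 and 1.16 ± 0.75 did not pass (adjusted p = 0.156 and 0.532). The control signals are in the low range, so these fold changes are not exact.

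**Figure D5:**
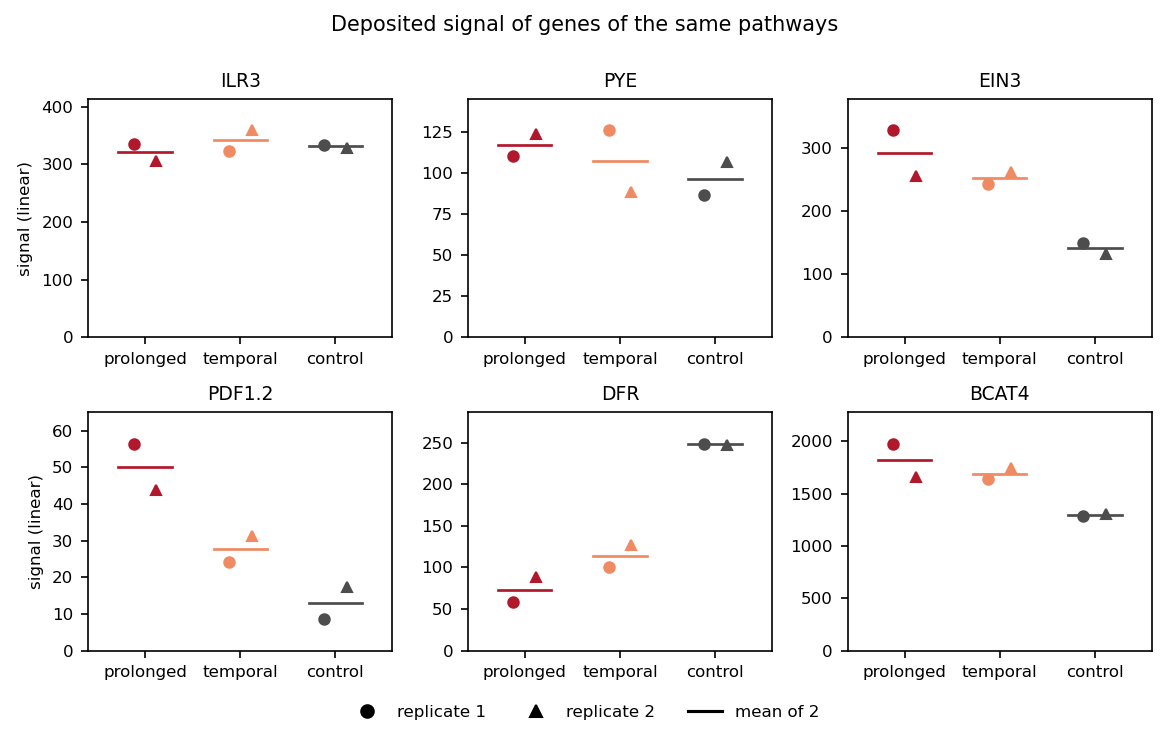
Deposited signal (linear axis from 0, arbitrary units) of 6 further genes on each array; circles are replicate 1, triangles replicate 2 and lines group means. EIN3 reads 243 to 327 in the induced arrays and 133 to 149.7 in control, DFR reads highest in control at 247 to 249, and ILR3 stays between 306 and 359 in all arrays.

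BCAT4 (AT3G19710), which starts the chain elongation of methionine for aliphatic glucosinolates, a pathway under MYB control, read 1979.9 and 1663 after prolonged induction, 1639 and 1741 after temporal induction, and 1289 and 1307 in control. It rose after prolonged induction (log2 fold change 0.48 ± 0.13, adjusted p = 0.0488), whereas 0.38 ± 0.13 after temporal induction did not pass (0.186). The rise passed among the 6 omissions of 1 array only without prolonged replicate 2, with adjusted p of 0.186 without prolonged replicate 1, 0.102 and 0.101 without temporal replicates 1 and 2, and 0.147 and 0.117 without control replicates 1 and 2. DFR (AT5G42800), an anthocyanin gene activated by MYB and bHLH complexes, read 58.9 and 88.0 after prolonged induction, 100.3 and 128 after temporal induction, and 249 and 247 in control. It fell by 1.79 on the log2 scale after prolonged induction (limma adjusted p = 0.00222) and by 1.13 after temporal induction (0.0489). The temporal fall of DFR did not pass without temporal replicates 1 and 2 (adjusted p = 0.312 and 0.157) or control replicates 1 and 2 (0.153 and 0.129). MYC3 and MYC4 of the jasmonate list, UGT74B1, NOL, SAG101 and BIM1 were the other matched genes and none passed against control.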

How the data were processed

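Labelled RNA of 6 samples was hybridised to ATH1 arrays with the one-cycle protocol, per the labels. Per the submitters' processing notes the authors used MAS5 and GCOS, with versions not given in the sources used here, and what they deposited is a linear intensity for each probe set. Image files and detection calls were not used here. The 64 Affymetrix controls were kept out of the tests. Of 22746 other probe sets, 13513 had 1 symbol (for 11933 only a locus name), 503 had several and 8730 had none, and 13436 of those with 1 symbol matched the TAIR10.1 annotation, used only for names.

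After log2, probe sets in the lowest 30% by mean (under 23.5 as a signal) were dropped. The remaining 15922 entered 1 fit of the 6 arrays in limma 3.58.1 (R 4.3.3), with an intensity trend (3 residual and 7.96 prior degrees of freedom). The smallest two-sided p of an exact permutation test with groups of 2 is 0.333, so significance depends on the variance pooled over probe sets. The fit was tested on simulated data whose spread followed the mean signal, so that test cannot show whether the intensity trend holds here. The genes and lists were chosen with earlier results of these data known. Named were all genes of the rule, list genes that passed, and others of a list with the smallest p. The symbol CHI, listed for chalcone isomerase, belongs to a chitinase gene here and was left out. Replicate numbers were not taken as pairs: deviations of arrays with the same number correlated at −0.06 to 0.01. Alternatives were 3 scalings, an offset of 25, 2 filters, no trend, a fit of 2 groups, a replicate block and each array left out. Sequences were not used here. Figures were drawn with matplotlib 3.10.9.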

Additional observations from a re-analysis of the deposited data

How the results depend on the processing

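The count of WRKY and bHLH genes that passed in prolonged induction against control, 1 in the reported fit, was 0 without the intensity trend, 0 in the fit of the 2 groups compared, and 0 to 1 when 1 array was left out. It was 0 under every alternative in the other 2 comparisons. With the replicate block it was 1 again, bHLH115 with an adjusted p of 0.0362; the block ended the calls of EIN3 after temporal induction (0.0562) and of BCAT4 after prolonged induction (0.0630), and the numbers do not pair the arrays. The temporal call of EIN3 was also lost after median centring (adjusted p = 0.0961), with no filter (0.0704), in the fit of 2 groups (0.0501) and without the trend (0.314), that of BCAT4 in the same 4 settings (0.124, 0.0737, 0.0964 and 0.318), that of DFR after temporal induction with no filter (0.0769) and without the trend (0.289), and that of DFR after prolonged induction without the trend (0.0891). An offset of 25 lowered the WRKY median to 0.46 after prolonged and 0.36 after temporal induction, and leaving out 1 array gave 0.46 to 0.74 and 0.43 to 0.82. In limma without the trend 47 probe sets passed in prolonged induction against control and 0 in temporal induction against control, beside 1107 and 386; the cause was not tested.

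Signs turned only for differences that did not pass. bHLH104 after temporal induction was −0.0081 with cyclic loess, and WRKY6 between the induced groups was 0.063, 0.018 and 0.10 with quantile normalization, median centring and cyclic loess. Leaving out 1 array gave, after prolonged induction, −0.15 to 0.28 for bHLH104, −0.45 to 0.00483 for bHLH34, −0.96 to 1.21 for WRKY6, −0.11 to 0.019 for ILR3 and −0.31 to 0.60 for ZAP1. After temporal induction it gave −0.29 to 0.023 for bHLH115, −0.087 to 0.11 for bHLH104, −0.55 to 0.39 for bHLH34, −0.94 to 1.25 for WRKY6, −0.032 to 0.12 for ILR3, −0.12 to 0.39 for PYE and −0.65 to 0.26 for ZAP1. Between the induced groups it gave −0.16 to 0.27 for bHLH104, −0.26 to 0.12 for WRKY20, −0.33 to 0.16 for WRKY47, −0.11 to 0.58 for BHLH101, −0.61 to 0.33 for bHLH34, −0.11 to 0.15 for WRKY22 and −0.28 to 0.24 for WRKY6. Where 1 array was left, it was assumed to vary like the others. No alternative moved the median of all tested probe sets by 0.1.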
